A study of Solanum lycopersicum x Solanum pennellii and Solanum lycopersicum with 21 samples.

Results

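The comparison set anthers of the tomato introgression line IL-1_1_3 (3 arrays) against those of the line IL-7_2 (4 arrays), which are 7 of the 21 arrays of the series. Arrays were assigned by the titles of the samples and not by their values, but the comparison was chosen with earlier results of these data known. Each line has a stretch of chromosome from the wild species Solanum pennellii in an otherwise M82 background, M82 being the domesticated parent, and in this population the first part of a line's name gives the chromosome that holds the segment. The 6 arrays of M82 served as the reference that shows which of the lines departs. Their titles read Pollen Control M82, while those of the lines name only the line. All plants grew in pots in a greenhouse under the same treatment, and anthers were taken 1 day before the flowers opened. The lines are described as hybrids in the series' design, and the sources used here do not give whether a plant held its segment in a single copy or in both copies. The labels give IL-1_1_3 the shorter line name IL-1_1 as well, and they do not say how many plants an array pooled or whether replicates were separate plants, so that the p-values rest on the spread among these arrays, part of which may be technical.

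An anther just before flower opening holds nearly ripe pollen inside a wall whose cells are about to loosen, dry and split. Xyloglucan and pectin are the wall polymers that enzymes such as xyloglucan endotransglucosylases and pectin methylesterases remodel at that time. Abscisic acid and the oxylipins, which are made from oxidised fatty acids, act as signals in the drying and opening of anthers. In an introgression line, genes inside the wild segment carry wild alleles, and genes elsewhere carry the alleles of M82. Whether the probes pair equally well with wild transcripts was not tested.

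Values are log2 expression values, 1 per probe set and array, between 3.39 and 14.69, with array medians of 9.49 to 9.55. Arrays carry no read depth, so their number limits the precision. Of the pollen markers listed, 4 of 10 were measured, namely Shy, PRK1, PRK2 and PRK3, and the mean of Shy stood at the 99.7 percentile of all probe sets. The 3 receptor kinase genes lay lower, at the 91.4, 92.9 and 27.3 percentiles. None of the 5 tapetum markers listed was measured. In whole anthers, fewer cells of a type and less transcript per cell cannot be told apart.

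One array stood apart. IL-7_2 replicate 2 had a mean correlation of 0.941 with the other arrays of its line, while the other arrays of the series had 0.965 to 0.994 with theirs. The lowest of the latter were IL-7_2 replicates 1, 3 and 4, at 0.974, 0.965 and 0.968, means that include the correlation with replicate 2. Replicate 2 alone held 23% of the variance within groups, and replicates 3 and 4 held 9.21% and 7.28%. Along the first axis of the deviations from group means, which held 59.2% of that variance, IL-7_2 replicates 1 to 4 lay at 1.06, -53.8, 47.9 and 42.5. The IL-1_1_3 arrays lay at -2.72, -23.6 and -22, and the M82 arrays between -20.4 and 40.2. IL-7_2 replicate 2 thus lay beyond the IL-1_1_3 arrays and at the opposite end from replicates 3 and 4 of its own line. Replicates 3 and 4 in turn lay beyond every M82 array, and these values cannot settle which arrays of the line are atypical. The counts between the lines and the genes called with all arrays are therefore given with and without IL-7_2 replicate 2.

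**Figure D1:**
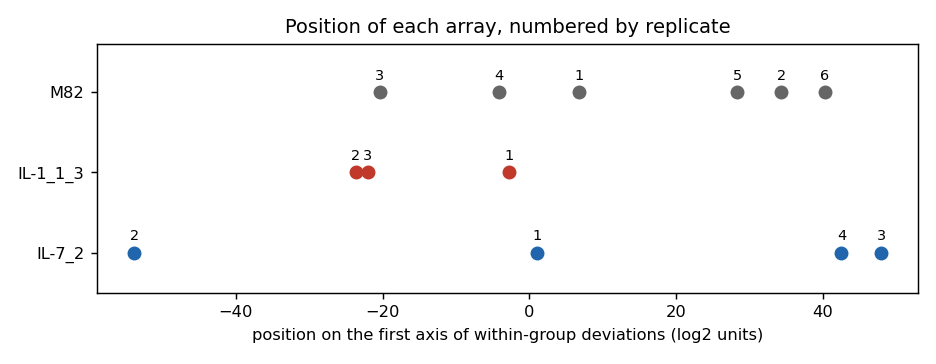
Position of each M82, IL-1_1_3 and IL-7_2 array (points, numbered by replicate) on the first axis of the within-group deviations, in log2 units summed over probe sets with the axis weights. IL-7_2 replicate 2 lies at -53.8, and replicates 3 and 4 of the same line lie at 47.9 and 42.5.

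Across all 10101 probe sets, 330 differed between the lines (limma, Benjamini-Hochberg adjusted p under 0.05), which is 3.27% of those tested. Of these, 129 were higher in IL-1_1_3 (1.28%) and 201 lower (1.99%), and the unadjusted p was under 0.05 for 1925. The split became 136 higher and 132 lower when the arrays were first scaled by cyclic loess. IL-7_2 alone differed from M82 for 143 of the 330 (43.3%), IL-1_1_3 alone for 66 (20%), both lines for 7 (2.12%), and neither was called against M82 for 114 (34.5%). The background of these departures was 2.84% of all probe sets called for IL-7_2 against M82 and 1.97% for IL-1_1_3. The 3 comparisons share arrays, so the counts by departing line describe the calls and are not a test.

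Over all sizes, IL-7_2 alone had risen above M82 for 71 probe sets and fallen for 72, and IL-1_1_3 alone had risen for 23 and fallen for 43. Among differences of at least 2-fold, IL-7_2 alone departed for 67 probe sets, of which 46 had fallen below M82 and 21 had risen. IL-1_1_3 alone departed for 34 of that size, with 28 falls and 6 rises. In the 114 probe sets where neither line was called against M82, the lines lay on opposite sides of M82 in all 114, and 16 of these differed by at least 2-fold. With both lines on the same side, the farther would differ more from M82 than from the other line. The choice of these probe sets thus largely fixes the opposite sides, which are a description. Without IL-7_2 replicate 2 the count of calls rose to 2131 (21.1% of those tested), 827 higher and 1304 lower in IL-1_1_3. All of the 330 calls were among them, with the same direction, and they made up 15.5% of the larger set. IL-1_1_3 alone then departed for 355, IL-7_2 alone for 246, both for 17 and neither for 1513, and 3.57% of all probe sets were called for IL-7_2 against M82. In that fit the departing line had risen more often than fallen, with 207 rises and 148 falls for IL-1_1_3 alone and 153 and 93 for IL-7_2 alone. At 2-fold or more these were 26 rises and 76 falls for IL-1_1_3 and 25 and 52 for IL-7_2.

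**Figure D2:**
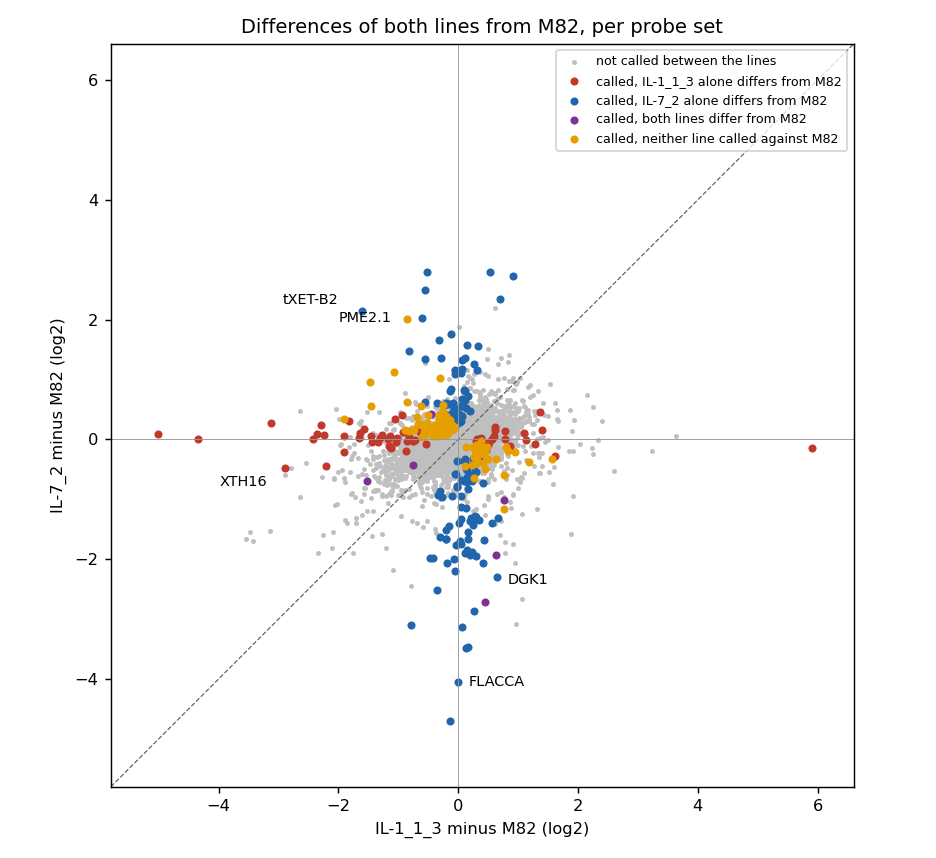
Each point is a probe set, with the log2 difference of IL-1_1_3 from M82 on the horizontal axis and that of IL-7_2 from M82 on the vertical axis; the dashed line marks equal differences. Coloured points are the 330 probe sets called between the lines, by the line that differs from M82. Blue points (143, IL-7_2 alone) spread along the vertical axis down past FLACCA at -4.05, and red points (66, IL-1_1_3 alone) spread along the horizontal axis.

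Of 626 genes with an informative symbol, 23 were called (3.67%), 8 higher and 15 lower in IL-1_1_3. The rule for naming took 22 of them. IL-7_2 departed from M82 for 10 of the 22, IL-1_1_3 for 4, and neither was called for 8. Without IL-7_2 replicate 2 all 22 kept their call between the lines, and 2 changed their class of departure.

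FLACCA and AO1 of abscisic acid synthesis and HPL of the oxylipin pathway were higher in IL-1_1_3, and for FLACCA and HPL IL-7_2 was the line that departed. FLACCA (Les.3454.1.S1_at) encodes the molybdenum cofactor sulfurase, which activates the aldehyde oxidases that finish abscisic acid. It read 10.38 and 10.37 in IL-1_1_3 replicates 1 and 2, just under the lowest M82 array in replicate 3, and 5.91, 6.02, 6.36 and 6.54 in IL-7_2, with 10.07, 10.32 and 10.39 as the lowest, median and highest value of M82. IL-1_1_3 overlapped M82, and every IL-7_2 array lay far below both. The difference was 4.05 ± 0.13 on the log2 scale (SE, 16.5-fold, adjusted p = 5.63e-13), and 3.98 without replicate 2 (adjusted p = 2.07e-12).

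AO1 (Les.3530.1.S1_at), an aldehyde oxidase and so a kind of enzyme that the FLACCA product activates, read 12.87, 12.77 and 12.77 in IL-1_1_3 and 12.39, 11.62, 12.22 and 12.37 in IL-7_2. M82 lay between them, from 12.44 to 12.72, without overlap on either side. The lines differed by 0.65 ± 0.14 (adjusted p = 0.0144), and by 0.48 without replicate 2, the lowest array (adjusted p = 0.00643). Neither line was called against M82 (0.23 for IL-1_1_3, adjusted p = 0.340, and -0.43 for IL-7_2, adjusted p = 0.0732). Of the 9 abscisic acid genes, 2 were higher in IL-1_1_3 and none lower, beside 1.28% and 1.99% of all probe sets. Their median difference was 0.12, beside -0.02 over all probe sets. The difference of AO1 lost its call without IL-1_1_3 replicate 1 or 2 (adjusted p up to 0.0723).

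HPL (Les.3478.1.S1_at), the lyase that splits hydroperoxides of fatty acids to give aldehydes, read 13.82, 13.67 and 13.83 in IL-1_1_3 and 11.50, 11.08, 12.37 and 12.10 in IL-7_2, with M82 between 13.58 and 13.71. All IL-7_2 arrays were below every other array, and 2 of the 3 IL-1_1_3 arrays sat just above the highest M82 array. The difference was 4.03-fold (log2 2.01 ± 0.19, adjusted p = 8.36e-07), and log2 1.78 without replicate 2 (adjusted p = 6.79e-08). HPL was the only called member among 17 jasmonate and oxylipin genes, beside 3.27% of all probe sets called. The median of the 17 was 0.20, with 6 of them below 0.

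Among kinases of signalling, DGK1 and CDPK1 were higher in IL-1_1_3 and MKK3 was lower. DGK1 (Les.3526.1.S1_a_at), a diacylglycerol kinase, which turns diacylglycerol into phosphatidic acid, read 9.19, 9.43 and 9.55 in IL-1_1_3 and 6.73, 7.41, 5.80 and 5.94 in IL-7_2. M82 ran from 8.21 to 9.11 with a median of 8.77. IL-1_1_3 lay above all M82 arrays and IL-7_2 below all of them, but only IL-7_2 was called against M82 (-2.29, adjusted p = 8.13e-06; 0.64 for IL-1_1_3, adjusted p = 0.207). The difference of 2.92 ± 0.30 (7.58-fold, adjusted p = 2.17e-06) widened to 3.24 without replicate 2 (adjusted p = 4.49e-08).

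CDPK1 (Les.923.1.S1_at), a calcium-dependent protein kinase, differed by 0.55 ± 0.12 (adjusted p = 0.0118; 0.45 and 0.0135 without replicate 2). Its mean was 11.06 ± 0.20 (SD, n = 3) in IL-1_1_3, 10.51 ± 0.24 (n = 4) in IL-7_2 and 11.09 ± 0.09 (n = 6) in M82, and IL-7_2 departed. The call ended without IL-1_1_3 replicate 1 or 3 (adjusted p up to 0.0780). MKK3 (Les.1068.1.S1_at), a MAP kinase kinase, read 4.90, 4.72 and 4.94 in IL-1_1_3, below all M82 arrays, and 5.72, 6.36, 6.15 and 5.96 in IL-7_2, above all of them. The difference was -1.20 ± 0.17 (adjusted p = 0.000175), and -1.09 without replicate 2 (adjusted p = 0.00054). With all arrays IL-7_2 departed from M82 (0.63, adjusted p = 0.0178), and without replicate 2 IL-1_1_3 did (adjusted p = 0.0354, against 0.0557 for IL-7_2). MKK3 is dim, with a mean at the 14.2 percentile of probe sets. Of the 20 signalling and cytoskeleton genes, 2 were higher and 1 lower, beside 1.28% and 1.99% of all probe sets, with a median of 0.15.

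The 3 largest differences among the genes lower in IL-1_1_3 were in cell wall genes. The xyloglucan endotransglucosylase gene tXET-B2 (Les.429.1.S1_at), whose product cuts and rejoins xyloglucan chains, read 6.54, 5.79 and 7.31 in IL-1_1_3 and 9.98, 10.92, 9.97 and 10.29 in IL-7_2. M82 had 6.41, 8.32 and 9.19 as lowest, median and highest value, so that IL-7_2 lay above all M82 arrays while IL-1_1_3 overlapped the lower ones. The difference was -3.74 ± 0.55 (13.4-fold, adjusted p = 0.000292), and -3.53 without replicate 2 (adjusted p = 0.000999). IL-7_2 departed from M82 by 2.14 (adjusted p = 0.0140), and IL-1_1_3, at -1.60, was not called (adjusted p = 0.101).

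PME2.1 (Les.3630.1.S1_at), a pectin methylesterase, which removes methyl groups from pectin, read 7.33, 6.68 and 7.43 in IL-1_1_3 and 9.35, 8.58, 10.75 and 10.41 in IL-7_2. IL-7_2 was above every M82 array (6.82 to 8.27), and IL-1_1_3 overlapped the low end of that range. The difference of -2.63 ± 0.45 (6.18-fold, adjusted p = 0.00166) widened to -3.02 without replicate 2, the lowest IL-7_2 array (adjusted p = 0.000141). PE1 (Les.3122.1.S1_a_at), a second pectinesterase, differed by -0.31 ± 0.06 (adjusted p = 0.00812; -0.30 and 0.00971 without replicate 2), with IL-7_2 at 4.91 to 4.97 and M82 at 4.54 to 4.71. It is among the dimmest probe sets, with a mean at the 9.02 percentile, and its call ended without IL-1_1_3 replicate 1 (adjusted p = 0.0720). For both genes IL-7_2 departed. Of 9 pectin enzyme genes these 2 were lower in IL-1_1_3 and none was higher, beside 1.99% and 1.28% of all probe sets. The median difference was 0.00.

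XTH16 (Les.4008.1.S1_a_at), of the same enzyme family as tXET-B2, was the wall gene for which IL-1_1_3 departed. It read 9.47, 8.05 and 8.05 in IL-1_1_3 and 10.32, 9.92, 11.25 and 12.32 in IL-7_2, while M82 spread from 9.52 to 12.73. The IL-1_1_3 arrays lay below both other groups. The difference was -2.43 ± 0.65 (5.39-fold, adjusted p = 0.0477), and -2.78 without replicate 2 (adjusted p = 0.0139). This call sat at the threshold: it ended when any 1 of 8 other arrays was left out (IL-7_2 replicate 3 or 4, IL-1_1_3 replicate 2 or 3, M82 replicate 1, 2, 4 or 6, adjusted p up to 0.229), after cyclic loess or quantile scaling, and on its other probe sets (-2.32 with adjusted p = 0.0523 and -2.31 with 0.0623). Of 43 cell wall genes 2 were lower in IL-1_1_3 and none higher, beside 1.99% and 1.28% of all probe sets, and the median was -0.08.

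IL-1_1_3 also departed from M82 for SDH, EIL2 and BL3. SDH (Les.5684.1.S1_at) read 10.72, 10.67 and 10.71 in IL-1_1_3 and 12.07, 11.74, 12.03 and 12.13 in IL-7_2, with M82 between 11.90 and 12.14. The IL-1_1_3 arrays lay close together and more than a log2 unit under all others, and IL-7_2 overlapped M82 except for a lower replicate 2. The difference was -1.30 ± 0.09 (2.46-fold, adjusted p = 4.44e-09; -1.38 and 3.62e-10 without replicate 2). EIL2 (Les.3471.1.S1_at), a transcription factor that acts downstream of ethylene receptors, read 10.79, 10.70 and 10.77 in IL-1_1_3, below every M82 array (11.31 to 11.94), and 11.73, 12.20, 11.06 and 11.33 in IL-7_2. Replicate 2 was the highest IL-7_2 array, and the difference went from -0.83 ± 0.21 (adjusted p = 0.0350) to -0.62 without it (adjusted p = 0.0260). The call of EIL2 ended without IL-7_2 replicate 1 or any IL-1_1_3 array (adjusted p up to 0.146). It was the 1 called member of 45 ethylene genes, whose median was 0.02, beside 3.27% of all probe sets called.

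Among genes called with all arrays on the probe set that stands for them, BL3 (Les.4315.1.S1_at) was the 1 that was higher in IL-1_1_3 and departed there. Its mean was 10.37 ± 0.10 in IL-1_1_3, 10.06 ± 0.16 in IL-7_2 and 10.06 ± 0.07 in M82. The difference of 0.31 ± 0.08 (adjusted p = 0.0414; 0.30 and 0.0264 without replicate 2) ended with any 1 of 7 arrays left out (IL-7_2 replicate 1 or 4, IL-1_1_3 replicate 1 or 2, M82 replicate 1, 2 or 5, adjusted p up to 0.229), and the arrays of the lines overlapped, since IL-7_2 replicate 3 read 10.30 and IL-1_1_3 replicate 3 read 10.26. ARPI (Les.3756.1.S1_a_at) and DIG3 (Les.4526.1.S1_at) were higher in IL-1_1_3, with IL-7_2 departing. ARPI differed by 1.53 ± 0.39 (adjusted p = 0.0351; 1.54 and 0.0218 without replicate 2). The departure of IL-7_2 from M82 for ARPI, -1.32 with an adjusted p of 0.0310, did not pass without replicate 2 (0.0518). The call of ARPI between the lines ended without IL-7_2 replicate 1 or 4 or any IL-1_1_3 array (adjusted p up to 0.155). DIG3 differed by 0.86 ± 0.14 (adjusted p = 0.000735; 0.89 and 0.00108 without replicate 2), with IL-7_2 at 10.70 to 11.22, under all M82 arrays (11.31 to 11.90).

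**Figure D3:**
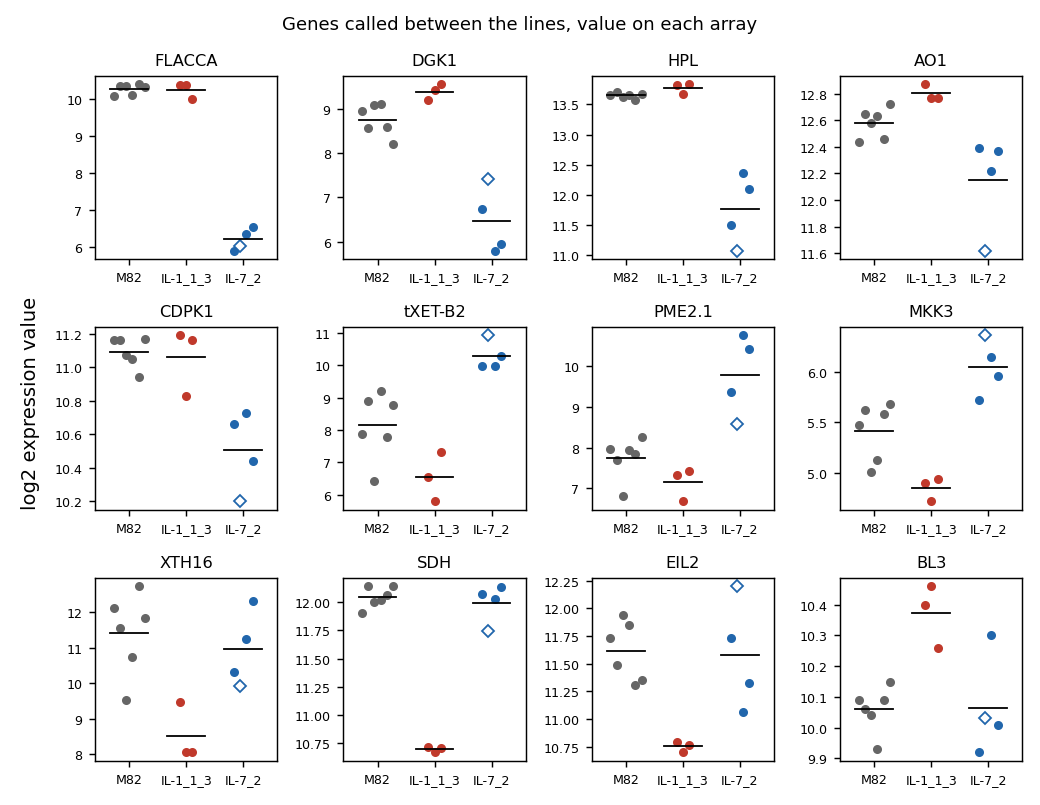
Log2 expression value on each array for 12 genes called between the lines, in M82 (grey, 6 arrays), IL-1_1_3 (red, 3) and IL-7_2 (blue, 4); the open diamond is IL-7_2 replicate 2 and the bar is the group mean. FLACCA, DGK1, HPL and CDPK1 drop in IL-7_2, tXET-B2 and PME2.1 stand high there, and XTH16, SDH and EIL2 drop in IL-1_1_3.

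Several genes differed between the lines with the lines on opposite sides of M82, an order that the choice of such genes largely fixes. Besides AO1 these were P18, chMDH, AGPL3, cdc2A-2, DCL, APX and ADC, which were all lower in IL-1_1_3, and neither line was called against M82, with or without replicate 2. The largest was P18 (Les.3597.1.S1_at), at 7.80 ± 0.28 in IL-1_1_3, 8.87 ± 0.32 in IL-7_2 and 8.50 ± 0.34 in M82 (difference -1.07 ± 0.27, adjusted p = 0.0350; -1.14 and 0.0172 without replicate 2). Next came chMDH, a malate dehydrogenase (-0.52), and AGPL3, a large subunit of ADP-glucose pyrophosphorylase, the enzyme that commits sugar to starch (-0.49). Both are dim, at the 13 and 11 percentiles. Smaller differences were found for cdc2A-2, a cyclin-dependent kinase of the cell cycle (-0.39), DCL, a gene of chloroplast development (-0.32), APX, an ascorbate peroxidase (-0.29), and ADC, an arginine decarboxylase of polyamine synthesis (-0.28). INFA, called as well (-0.30, adjusted p = 0.0382), fell outside the naming rule and is given after its value was seen. Without replicate 2 the differences were -0.59 for chMDH, -0.43 for AGPL3, -0.40 for cdc2A-2, -0.28 for DCL, -0.33 for APX, -0.29 for ADC and -0.27 for INFA, with adjusted p-values from 0.0134 (APX) to 0.0308 (DCL). Except for DCL, the arrays of the lines did not overlap for the genes of this paragraph. Each of these 7 genes besides AO1 and INFA lost its call without IL-1_1_3 replicate 1, without IL-1_1_3 replicate 2 and without IL-7_2 replicate 3. Calls also ended without IL-1_1_3 replicate 3 (chMDH, DCL, APX and ADC), IL-7_2 replicate 1 (chMDH, cdc2A-2 and DCL) and IL-7_2 replicate 4 (P18, chMDH, APX and ADC). Among M82 arrays, replicate 2 ended the call of APX, replicate 5 those of chMDH and APX, and replicates 4 and 6 those of chMDH, DCL and APX. The adjusted p over these fits reached 0.239.

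Several lists held 1 call each, beside 3.27% of all probe sets called. Calls were made for 1 of 25 sugar and starch genes (AGPL3; median -0.00), 1 of 15 cell cycle and histone genes (cdc2A-2; median -0.13), 1 of 21 redox genes (APX; median -0.08), 1 of 20 proline, polyamine and nitrogen genes (ADC; median 0.06) and 1 of 8 malate dehydrogenase and respiration genes (chMDH; median -0.09). No member was called in 14 of the 25 lists. The best-supported member of each of those had a difference from -1.44 to 0.95, and the lowest adjusted p among them was 0.0524. All 9 photosynthesis genes lay below M82 in both lines, which share the M82 arrays. Their medians were -0.73 in IL-1_1_3 and -0.40 in IL-7_2, beside 0.03 and 0.04 over all probe sets. Against M82, only CAB6A and POR2 were called in IL-1_1_3 (adjusted p = 0.0232 and 0.0335) and only PsbQ in IL-7_2 (adjusted p = 0.0301). Between the lines none of the 9 genes was called, and the median was -0.27, with 7 of 9 below 0, beside 53.4% of all probe sets.

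The 2 largest differences in either direction were in probe sets without an informative symbol. Of 8 such probe sets named, IL-1_1_3 departed for 4. Les.840.1.A1_at read 11.63, 9.53 and 10.63 in IL-1_1_3 and 4.45 to 4.76 in IL-7_2, where it overlapped M82 (4.35 to 5.20). Its difference of 6.03 ± 0.33 (65.6-fold, adjusted p = 2.92e-10) was a rise in IL-1_1_3. LesAffx.67882.1.S1_at (-5.11 ± 0.20, adjusted p = 1.70e-12) and Les.2320.1.A1_at (-4.36 ± 0.17, adjusted p = 1.70e-12) were falls in IL-1_1_3. They read 4.90 to 5.52 and 4.85 to 5.65 there, against 10.01 to 10.51 and 9.52 to 9.85 in M82. Les.3560.1.S1_at (annotated LOC543740) fell in IL-1_1_3 too, to 4.55, 4.55 and 4.59, with a difference from IL-7_2 of -3.41 ± 0.60 (adjusted p = 0.00201).

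IL-7_2 departed for the other 4. Les.413.1.S1_s_at read 7.35, 6.79, 8.23 and 7.65 in IL-7_2 and 11.92 to 12.18 in IL-1_1_3 (difference 4.56 ± 0.38, adjusted p = 1.35e-07). Les.1577.1.A1_at (3.63 ± 0.17, adjusted p = 3.86e-11) and Les.3734.1.S1_at (annotated LOC543817; 3.62 ± 0.27, adjusted p = 2.36e-08) fell in IL-7_2 too, and replicate 2 had the highest value of that line in both, at 9.32 and 9.15. Les.1859.3.S1_at rose in IL-7_2, to 9.68, 9.52, 9.92 and 10.32 against 5.92 to 7.21 in IL-1_1_3 (difference -3.31 ± 0.41, adjusted p = 3.22e-05). For all 8 probe sets the arrays of the lines were separate, and neither the call nor the departing line changed without replicate 2, where the differences were 6, -5.24, -4.22, -3.84, 4.32, 3.87, 3.94 and -3.43 in the order given.

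Leaving out IL-7_2 replicate 2 added 1801 calls. The median residual SD of a probe set went from 0.192 to 0.171, and the median absolute difference between the lines from 0.168 to 0.231. With any other 1 of the 13 arrays left out in turn, these lay at 0.189 to 0.195 and 0.142 to 0.187, and the count of calls at 177 to 410. Among the 1801, replicate 2 lay outside the other 3 IL-7_2 arrays on the side of IL-1_1_3 for 1651 (91.7%), beside 64.6% of all probe sets tested and 45.2% of the 330. The choice of these probe sets, which pass only without that array, largely fixes this share, so it is a description. With replicate 2 set aside, both lines overlapped the range of the M82 arrays in 1224 of the 1801 (68%), in 57 of the 330 (17.3%) and in 82% of all probe sets tested.

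**Figure D4:**
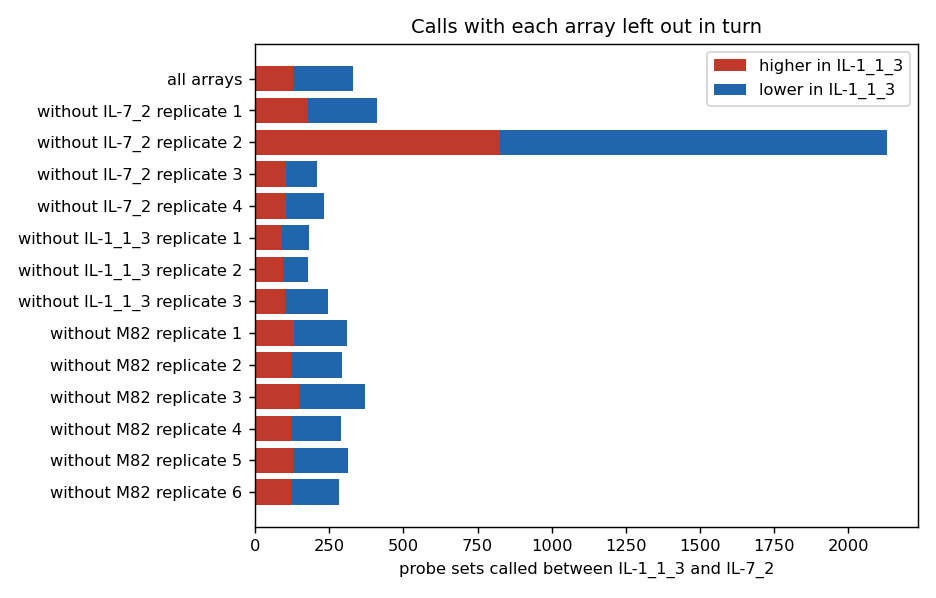
Number of probe sets called between IL-1_1_3 and IL-7_2 with all arrays and with each of the 13 arrays of the lines and M82 left out in turn, as bars from 0, red for those higher in IL-1_1_3 and blue for those lower. The bar without IL-7_2 replicate 2 reaches 2131, and no other reaches more than 410.

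Of the genes with an informative symbol, 132 (21.1%) were called without replicate 2, 53 higher and 79 lower in IL-1_1_3, which is the share of all probe sets. Of these, 109 were not called with all arrays. The 42 genes named next did not pass with replicate 2, and their differences are given without it. With all arrays all 42 had the same direction and a smaller difference, and their adjusted p-values ran from 0.0524 to 0.6. Wall enzymes had some of the largest differences. XET4, a further xyloglucan endotransglucosylase, read 4.56 to 5.24 in IL-1_1_3 and 6.16, 9.47 and 8.97 in IL-7_2 replicates 1, 3 and 4, while replicate 2 read 4.76. Its difference was -3.40 ± 0.79 (adjusted p = 0.0115), and -2.54 with all arrays (adjusted p = 0.135). The endoglucanase genes CELLULASE and Cel2 had the same order. CELLULASE read 7.23 to 7.99 in IL-1_1_3 and 9.22, 10.53 and 10.07 in IL-7_2, with 6.77 in replicate 2 (difference -2.23 ± 0.45, adjusted p = 0.00479). Cel2 differed by -1.42 ± 0.27 (adjusted p = 0.00352), and IL-1_1_3 was the line that departed from M82 (-1.16, adjusted p = 0.0126). The expansin gene EXPA6, whose product loosens walls, differed by -1.99 ± 0.63 (adjusted p = 0.0353), again with IL-1_1_3 departing (adjusted p = 0.0388). The other EXPA6 probe set was not called, at -0.21 (adjusted p = 0.208). Of the 43 cell wall genes, 3 were then higher and 9 lower, beside 8.19% and 12.9% of all probe sets, and their median was -0.25.

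In this fit 12.9% of all probe sets were lower and 8.19% higher in IL-1_1_3, beside which the counts of the lists stand. Of 6 ribosomal protein genes 3 were lower and none higher (median -0.65). RPL3 read 12.31, 12.02 and 12.34 in IL-1_1_3 and 12.77, 13.28 and 13.33 in IL-7_2, with 12.08 in replicate 2 (-0.90 ± 0.25, adjusted p = 0.0229), and RPL8 differed by -0.67. Of 8 heat shock genes 4 were lower, among them the chaperone gene Hsp90-1 (-1.14 ± 0.26, adjusted p = 0.00977), which read 11.80, 11.25 and 12.02 in IL-1_1_3 and 12.56, 12.89 and 13.05 in IL-7_2, with 11.31 in replicate 2, and HSP21 of the chloroplast (-0.45, adjusted p = 0.0172). IL-1_1_3 departed from M82 for both. Cell cycle and histone genes had 5 lower and 1 higher of 15; the cyclin gene CycA2 was lower (-0.89, adjusted p = 0.0235), and krp2, which encodes an inhibitor of cyclin-dependent kinases, was the one that was higher (0.80, adjusted p = 0.0265).

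Of 25 sugar and starch genes 1 was higher and 5 lower, a share near the 21.1% of all probe sets called. HT1, a hexose transporter, differed by -1.67 ± 0.40 (adjusted p = 0.0135), AGAL, an alpha-galactosidase, by -2.53 ± 0.74 (adjusted p = 0.0275) and FRK2, a fructokinase, by -0.45 ± 0.09 (adjusted p = 0.0059). Replicate 2 of IL-7_2 had the lowest value of its line for all 3 genes, at 8.06, 5.57 and 11.99. For the cytosolic malate dehydrogenase gene cMDH it read 8.89, below every other array, and the difference was -1.35 without it (adjusted p = 0.0347). The subtilisin-like protease gene P69B (-1.16, adjusted p = 0.00635), the gibberellin-responsive gene TGAS118 (-1.54, adjusted p = 0.0225) and IAA3 of auxin signalling (-1.60, adjusted p = 0.0476) were lower as well. The other probe set of IAA3 was not called, at -0.16 (adjusted p = 0.25). Also lower were LOX1.1, a lipoxygenase (-0.64), COI1, the jasmonate receptor subunit (-0.44), PHYA, a phytochrome (-0.41), gdh1, a glutamate dehydrogenase (-0.46), UBC27, a ubiquitin-conjugating enzyme (-0.43), and csn5, a signalosome subunit (-0.56). IL-7_2 departed from M82 for COI1 (0.39, adjusted p = 0.0117) and PHYA (0.39, adjusted p = 0.0209). ARF3, an auxin response factor, was lower (-0.46, adjusted p = 0.0349). Its other probe set was higher in IL-1_1_3, at 0.54 (adjusted p = 0.0162), and at 0.58 with all arrays (adjusted p = 0.0132). IL-1_1_3 departed from M82 on that probe set in both fits (0.49 with all arrays, adjusted p = 0.0387).

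Genes higher in IL-1_1_3 included a pollen receptor, carotenoid genes and amino acid carriers. PRK1, a pollen receptor kinase, read 12.57, 13.06 and 12.49 in IL-1_1_3 and 12.26, 10.74 and 11.25 in IL-7_2, with 13.10 in replicate 2, and differed by 1.29 ± 0.32 (adjusted p = 0.0164; 0.87 and 0.243 with all arrays). It was the 1 called of 6 genes in the pollen list, beside 21.1% of all probe sets called. PRK2 and PRK3 were not called (adjusted p = 0.0818 and 0.0928). All 6 lay above 0 with and without replicate 2, but LAT61 and Stig1 are not among the measured pollen markers named above. For LAT61 the difference was only 0.04 with all arrays and 0.01 without replicate 2. For Stig1, dim with a mean of 4.23 in IL-7_2 and in M82, the difference of 0.39 came with 1 high array. IL-1_1_3 replicate 3 read 5.29 there, beside 4.30 and 4.27 in replicates 1 and 2. The mean level of these 6 genes was 10.10 to 10.68 in the IL-1_1_3 arrays, 9.46 to 10.82 in IL-7_2 and 9.78 to 10.59 in M82, and the part of pollen content in the differences was not tested. formin-I2I, an actin-organising formin, departed from M82 in IL-7_2 (-1.60, adjusted p = 0.0196). Its difference was 1.88 ± 0.42 (adjusted p = 0.00953), from 8.85, 10.14 and 9.22 in IL-1_1_3 and 7.76, 7.35 and 7.44 in IL-7_2, with 9.28 in replicate 2.

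The amino acid carrier genes ProT1, for proline (1.44, adjusted p = 0.0295), and AAP3 (0.95, adjusted p = 0.0147) were higher, as was TAO2, an aldehyde oxidase like AO1 (1.40 ± 0.36, adjusted p = 0.0178). In the abscisic acid list 3 of 9 genes were then higher, beside 8.19% of all probe sets. Of 17 carotenoid and plastid isoprenoid genes 5 were higher and none lower (median 0.32). Among them were NSY (0.82, adjusted p = 0.0164) and ISPE of the plastid isoprenoid pathway (0.64, adjusted p = 0.0183, with IL-1_1_3 departing, adjusted p = 0.0362). Further genes that were higher were twi1 (2.64) and ca2 (2.54), Ve2, a receptor of the Verticillium response (1.08), CRY2, a cryptochrome (0.56), EIL4 (0.56) and ERF-H1 (0.34) of the ethylene response, PLDa3, a phospholipase D (0.48), THT7-8, a hydroxycinnamoyl transferase (0.49), AG1, a MADS box gene (0.40), DREB1 (0.66) and WRKYIId-1 (0.82). IL-1_1_3 departed for EIL4, THT7-8 and DREB1.

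Neither line was called against M82 for 31 of the 42 genes named from the fit without replicate 2, IL-1_1_3 departed for 8 and IL-7_2 for 3. With replicate 2 counted, the arrays of the lines were separate for 3 of the 42 (7.14%), beside 10.1% of all probe sets tested.

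**Figure D5:**
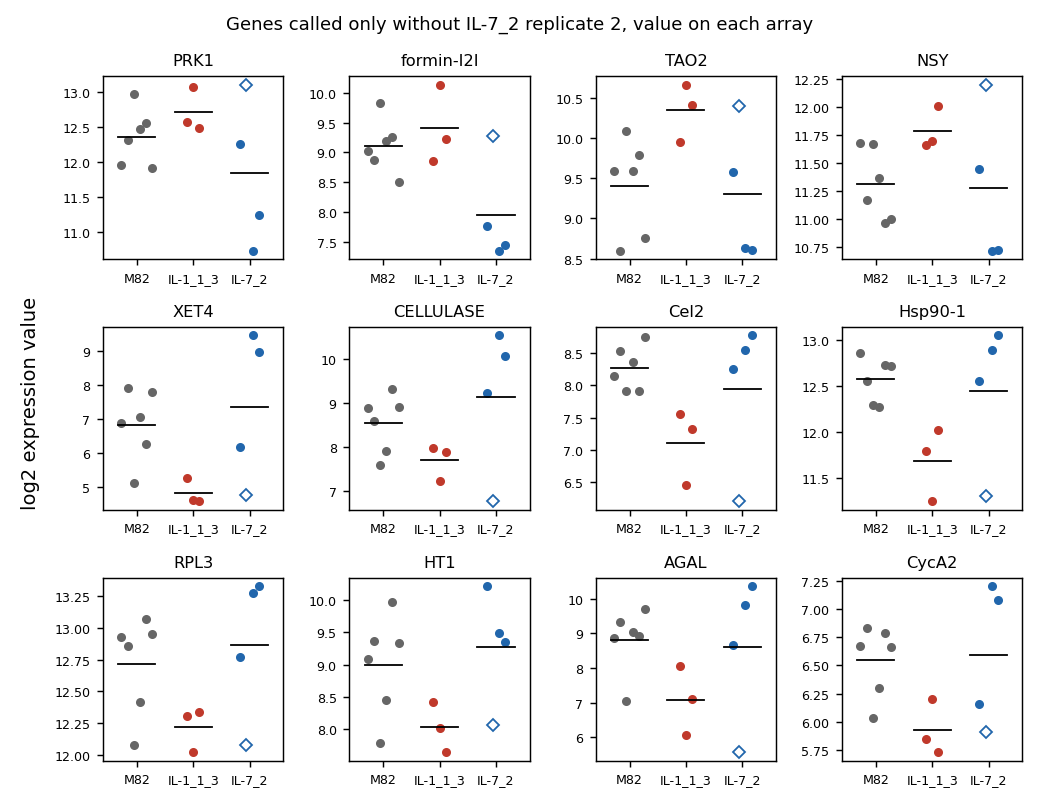
Log2 expression value on each array for 12 genes that were called between the lines only without IL-7_2 replicate 2 (open diamond), with M82 in grey, IL-1_1_3 in red, IL-7_2 in blue and bars at the means of all arrays. In each panel the diamond sits among or beyond the IL-1_1_3 arrays, away from IL-7_2 replicates 3 and 4.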

How the data were processed

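The deposited table holds log2 expression values of 10209 probe sets on 21 Affymetrix arrays. They were made with the affy package, per the submitters' processing notes; the sources used here give neither its version nor the summarisation and scaling, and log2 is inferred from the range of the values. Leaving out 108 AFFX control probe sets, 10101 were tested, including 63 reporter probe sets. The platform's annotation table of genes, which can be old, gave 1 symbol to 909 probe sets, several to 0 and none to 9192, and 626 genes had an informative symbol. It places no gene on a chromosome, so positions were not analysed here.

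Groups were taken from sample titles. A linear model of 5 groups over all arrays was fitted with limma 3.58.1 (R 4.3.3; lmFit, contrasts.fit, eBayes; 16 residual degrees of freedom, 15 without IL-7_2 replicate 2), and p-values were Benjamini-Hochberg adjusted over all probe sets, with calls at 0.05. The model takes 1 spread per probe set for all 5 groups. The IL-7_2 arrays held 3.99%, 23%, 9.21% and 7.28% of the variance within groups, and the IL-1_1_3 arrays 1.98%, 2.69% and 1.96%. The SE can thus be too small for probe sets that varied most in IL-7_2. A line departs from M82 where its own contrast is called. The probe set with the highest mean stands for a gene. Errors are SD for levels and SE for differences. Named were the 12 highest and 12 lowest called genes (fewer where fewer were called), up to 3 called members of each of 25 lists, and 4 probe sets per direction without an informative symbol. For the fit without replicate 2, the 4 highest and 4 lowest newly called genes and up to 2 per list were added after its counts were seen. The members, lists and rules were chosen with earlier results of these data known. The model was checked on simulated data with independent noise of the same spread in every group. Those data had neither an axis shared by many probe sets nor a wider spread in IL-7_2, so the check does not cover these. Arrays were not paired by replicate number in the model. Deviations of same-numbered arrays of the lines correlated at -0.02, 0.31 and -0.23, and those of other pairs at -0.66 to 0.59. Whether same-numbered arrays shared a batch was not tested.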

Additional observations from a re-analysis of the deposited data

Results flagged for a closer look

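In 6 cases the value of a named gene lay far from the other arrays of its group, out of 144 groups examined, where chance gives about 5%, or 7.2. Low values of M82 replicate 3 made up 4 of these: Les.3560.1.S1_at at 5.51 (others 7.68 to 8.71), IAA3 at 4.24 (6.25 to 7.01), EXPA6 at 7.53 (9.19 to 9.79) and AGAL at 7.04 (8.87 to 9.70). APX read 7.17 in M82 replicate 1 (others 7.31 to 7.33). DCL read 8.10 in IL-7_2 replicate 4 (others 8.40 to 8.43), and this array makes the lines overlap for that gene. IL-7_2 replicate 2 held 0 of the 6. Probe sets named with all arrays had passed with that array included, so this count does not describe the array over all probe sets.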

How the results depend on the processing

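Without 1 array in turn, the calls between the lines ranged from 177 to 2131, those higher in IL-1_1_3 from 91 to 827, those lower from 84 to 1304, and departures ranged from 31 to 355 for IL-1_1_3 alone and from 105 to 246 for IL-7_2 alone; every upper end is the fit without IL-7_2 replicate 2. Without IL-1_1_3 replicate 1 or 2 or IL-7_2 replicate 3 the calls numbered 183, 177 and 208. Departures of IL-1_1_3 alone moved by more than 1.5 times without M82 replicate 3 (123) or 6 (42), IL-7_2 replicate 1 (103) and each IL-1_1_3 array (43, 31 and 39). Estimated array weights, which gave IL-7_2 replicate 2 the lowest weight of all arrays (0.0936), called 4302 (1861 higher, 2441 lower; 1871 departures of IL-1_1_3 alone and 539 of IL-7_2 alone). The fit of the 7 arrays of the lines alone called 75 (46 higher, 29 lower). It had fewer residual degrees of freedom and took its spread from these lines only, and the parts of these in the fall were not tested. The 13 arrays of the lines and M82 gave 154 (80 higher, 74 lower; 33 and 81 departures). An adjusted p of 0.01 left 155 (81 higher, 74 lower; 32 and 86 departures). Cyclic loess scaling lowered the lower calls to 132, and the share of higher calls went from 39.1% to 50.7%; the cause was not tested. With the replicate number as a block, 184 were called (94 higher, 90 lower, with 29 and 91 departures). Whether same-numbered arrays share more than a number was not tested. ARF3 reversed to 0.58 on its other probe set. Of the 30 probe sets named with all arrays, 16 kept their call without each of the 13 arrays in turn and 14 kept it under every alternative in which they were tested, namely FLACCA, DGK1, HPL, tXET-B2, SDH, MKK3 and the 8 without an informative symbol, and none of the 30 changed direction. Leaving out the dimmest 0.25 of probe sets removed 7 of the 30, MKK3, Les.840.1.A1_at, Les.3560.1.S1_at and Les.1859.3.S1_at among them, so these were not tested there. The deposited values carry neither depth nor detection calls, so it is unknown which dim probe sets stood above background.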

Other observations

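A second probe set of the mitochondrial malate dehydrogenase gene mMDH1 (LesAffx.32705.1.S1_s_at), which does not stand for the gene above, was higher in IL-1_1_3 by 0.76 ± 0.08 (adjusted p = 7.68e-06; 0.73 and 3.07e-05 without IL-7_2 replicate 2). It read 12.59, 12.58 and 12.57 in IL-1_1_3 and 11.69, 11.73, 12.06 and 11.80 in IL-7_2, and IL-7_2 departed from M82 (-0.78, adjusted p = 6.07e-07). The probe set that stands for mMDH1 (Les.3402.1.S1_at) differed by -0.03 (adjusted p = 0.893). mMDH1 was singled out after its values were seen.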
